A study of Mus musculus with 6 samples.

Results

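The 2 arms of the mouse microRNA (miRNA) miR-129, mmu-miR-129-5p and mmu-miR-129-3p, were followed in the mouse erythroid line G1E-ER4. They were taken as every probe annotated with either name, which gave 2 of the 275 mouse miRNA names on the array and 2 of the 294 probes for such names. Each probe was printed in 4 spots, so the arms held 8 of the 1176 mouse miRNA spots of an array. The arms were selected on their log ratios, which differed in opposite directions between estradiol and untreated cells, so their differences are given as a description, with no test.

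G1E-ER4 cells have no GATA-1 of their own, the transcription factor that drives red cell maturation, and carry a form of it that becomes active in estradiol. The 2 groups were cells given 1e-07 M estradiol for 24 h and untreated cells, labelled as 0 h, each as 3 separately grown cultures. Both groups carried the GATA-1 form and were kept with erythropoietin and stem cell factor. Neither cells kept for 24 h without estradiol nor cells lacking the estradiol-dependent GATA-1 were analysed here, so GATA-1 activation, time in culture and other actions of estradiol cannot be told apart. The RNA of a culture was labelled in the dye Hy3 and a common reference in Hy5, made by mixing all 6 samples in equal parts. No dye swap is described, so a dye effect of a probe does not cancel. These are RNA levels of whole cultures, in which a change in the number of cells of a kind and a change of RNA per cell cannot be told apart.

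A miRNA hairpin is cut by the enzymes Drosha and Dicer into a short duplex, and one or both of its strands, the 5p arm and the 3p arm, are loaded into an Argonaute protein. The loaded arm pairs with messenger RNAs mainly through its seed, bases 2 to 8, so arms of one hairpin have different targets. miR-129 is known mainly from the brain and is made from a pair of genes.

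The mature sequences show that the arms have unrelated seeds, which are in capitals (RefSeq, GRCm38.p6).
mmu-miR-129-5p: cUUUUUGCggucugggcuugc
mmu-miR-129-2-3p: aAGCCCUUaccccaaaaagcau
Each of the 2 seeds occurred in 1 of 1679 mature mouse miRNA names, so no other miRNA in that table shared one. The hairpins show how the genes differ, with both arms in capitals.
Mir129-1: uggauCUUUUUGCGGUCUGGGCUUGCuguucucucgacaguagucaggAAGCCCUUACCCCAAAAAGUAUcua
Mir129-2: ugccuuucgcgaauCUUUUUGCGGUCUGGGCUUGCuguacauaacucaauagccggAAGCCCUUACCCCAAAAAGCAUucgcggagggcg
Mir129-1 lies on the plus strand of chr6:29022619-29022691, between the protein-coding genes Snd1 and Lep. Mir129-2 lies on the minus strand of chr2:94241364-94241453, within the span of the non-coding gene Mir670hg. The 5p arm is the same in both, at chr6:29022624-29022644 and chr2:94241419-94241439, so its probe cannot tell the genes apart. The 3p stretch of Mir129-1 differs from the mature 3p arm of Mir129-2 by C20U, counted from 1 at the 5′ end of the arm with the Mir129-2 base first. The mature 3p arm of Mir129-2 is at chr2:94241376-94241397. The probe sequences were not used here, so which 3p form the 3p probe binds is not known. In the folds predicted with RNAfold, 16 of the 21 bases of the 5p arm paired with the 3p arm in each hairpin, with minimum free energies of -31.0 kcal/mol for Mir129-1 and -48.0 kcal/mol for Mir129-2.
Another hairpin, Mir129b, overlaps 65 bases of Mir129-2 on the opposite strand. Its arms are shown because each lies across from an arm of Mir129-2 over 20 bases, again with seeds in capitals.
mmu-miR-129b-5p: gCUUUUUGggguaagggcuucc
mmu-miR-129b-3p: cAAGCCCAgaccgcaaaaagauu

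The scanner values of a probe were turned into a log2 ratio of sample over reference, after background correction and loess normalization within each array. miR-129-5p, the arm with the poly-U seed, had log2 ratios of 0.15, 0.29 and 0.24 in estradiol cultures 1 to 3, against -0.28, -0.27 and -0.33 in untreated cultures 1 to 3. Every estradiol culture lay above every untreated culture, and the cultures of a group lay close together. The means were 0.23 ± 0.07 with estradiol and -0.29 ± 0.03 untreated (SD, n = 3 each), a difference of 0.52 (SE 0.05), or 1.43-fold. miR-129-5p passed the brightness filter and was among the 7 of 51 probes called by limma at a Benjamini-Hochberg adjusted p under 0.05 (13.7% of those tested), of which 6 were higher and 1 was lower. The share of higher calls depended on the scaling: with centring on spiked controls 3 were higher and 7 lower, with centring on the median 2 and 1, with loess fitted on the probes above background in both channels 6 and 2, and in the sample channel alone 3 and 1. Higher calls were 11.8% and lower calls 1.96% of the probes tested, and 29.4% of them had groups that did not overlap. The arm was chosen for this contrast, and nothing is read from its call or from its separation.

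miR-129-3p, the arm with the seed AGCCCUU, had log2 ratios of 0.22, 0.10 and 0.82 in estradiol cultures 1 to 3, against 1.02, 0.50 and 1.67 in untreated cultures 1 to 3. The groups overlapped, since estradiol culture 3 lay above untreated culture 2. The means were 0.38 ± 0.39 with estradiol and 1.06 ± 0.59 untreated (SD, n = 3 each), a difference of -0.68 (SE 0.41). Untreated culture 3 carried much of it: without that culture the difference was -0.38. miR-129-3p did not pass the brightness filter, which asks for a sample signal over 2 background SDs above the local background in a share of at least 0.5 of a probe's spots on all 3 arrays of a group. Without that filter 19 of 294 probes were called (6.46%), 17 higher (5.78%) and 2 lower (0.68%), and miR-129-3p was not among them. Groups that did not overlap were found for 21.8% of the 294 probes.

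The authors' deposited log2 ratios gave nearly the same picture. In the authors' deposited table miR-129-5p had 0.18, 0.34 and 0.28 with estradiol and -0.24, -0.22 and -0.20 untreated. For miR-129-3p the authors' deposited table held 0.25, 0.14 and 0.79 with estradiol and 1.03, 0.55 and 1.72 untreated. The differences between the group means of these values were 0.49 for miR-129-5p and -0.70 for miR-129-3p.

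**Figure D1:**
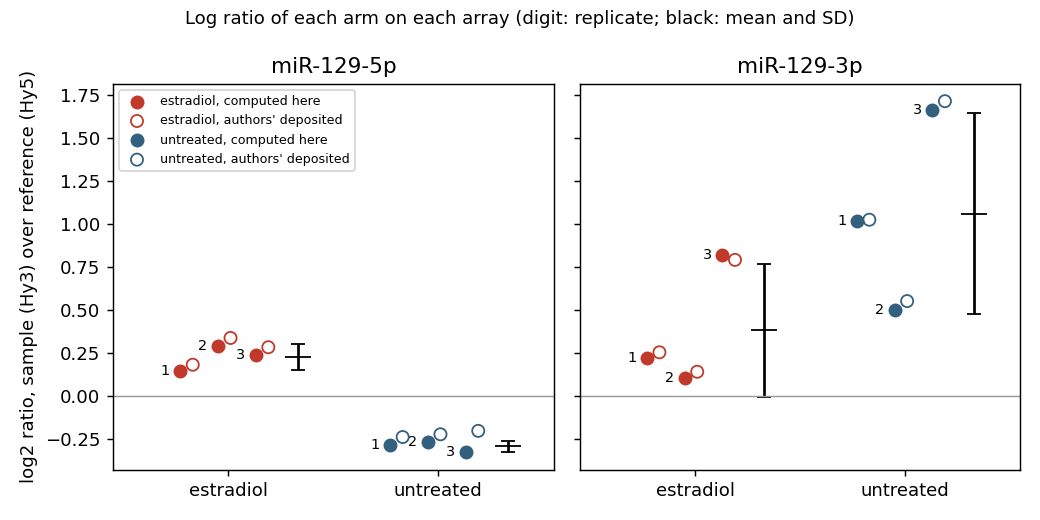
Log2 ratio of sample (Hy3) over common reference (Hy5) of miR-129-5p (left panel) and miR-129-3p (right panel), with estradiol (red) left of untreated (blue). Filled points are the ratios computed from the scanner values, open points the authors' deposited ratios, digits the replicate, and black bars the mean and SD of 3 cultures. For miR-129-5p the groups stand apart, with tight groups at 0.23 and -0.29, while for miR-129-3p the spread within a group is wide and estradiol culture 3 lies among the untreated cultures.

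The arm gap, the log2 ratio of miR-129-5p minus that of miR-129-3p on one array, is free of any shift that all probes of the array share. It was -0.07, 0.19 and -0.58 in estradiol cultures 1 to 3, against -1.30, -0.77 and -1.99 in untreated cultures 1 to 3. The groups did not overlap, which held for 3 of the 25 hairpins with both arms on the array. The arms were chosen for opposite directions, so nothing is read from this separation. The mean gap was -0.15 ± 0.39 with estradiol and -1.36 ± 0.61 untreated (SD, n = 3 each), a difference of 1.20 (SE 0.42). The log ratios of the 2 arms thus lay closer together with estradiol, and the difference is positive because the gap is signed. The 5p arm contributed 0.52 to the difference of 1.20 and the 3p arm the rest. The SE of the 3p arm was 0.41 against 0.05 for the 5p arm, both taken from the 3 cultures of each group alone. In limma's fit over all 294 probes the SEs were closer, 0.25 for the 3p arm and 0.10 for the 5p arm.

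The 2 channels showed where each arm differed. In the sample channel, the median spot intensity of miR-129-5p above its local background was 16679, 16278 and 13107 scanner units in estradiol cultures 1 to 3, against 6277, 10522 and 4951 in untreated cultures 1 to 3. All 3 estradiol arrays were brighter than all 3 untreated arrays, by 1.15 on the log2 scale (SE 0.34) before any normalization. The share of all probes separated in this way is not given here, and nothing is read from it. In the reference channel it was 14852, 11659 and 11798 on the estradiol arrays, against 5678, 13095 and 6239 on the untreated arrays. There the groups overlapped, with untreated array 2 as bright as the estradiol arrays and untreated arrays 1 and 3 dimmer. The reference RNA was the same mixture on all arrays.

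The intensity of miR-129-3p in the sample channel was 3568, 3654 and 2686 in estradiol cultures 1 to 3, against 2153, 3841 and 2551 in untreated cultures 1 to 3. The groups overlapped fully, with the highest value in an untreated culture, and the log2 difference was 0.24 (SE 0.29). The reference intensity at the same spots was 2699, 2709 and 1563 on the estradiol arrays, against 731, 2541 and 659 on the untreated arrays. The reference was dim on untreated arrays 1 and 3, the arrays with the 2 highest log ratios, and its log2 difference between the groups was 1.07 (SE 0.68). The reference groups overlapped too, since untreated array 2 was brighter than estradiol array 3.

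**Figure D2:**
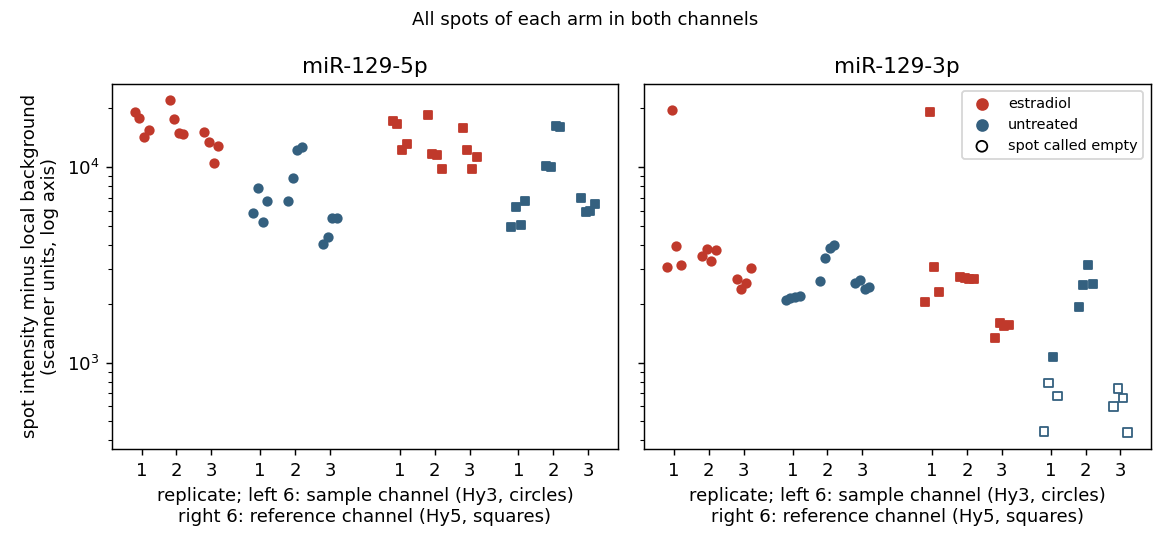
Intensity above local background of every spot of miR-129-5p (left panel) and miR-129-3p (right panel), on a log axis in scanner units, with estradiol (red) left of untreated (blue) in each channel. Circles are the sample channel, squares the reference channel, and open symbols the spots that the deposited flags call empty. The sample spots of miR-129-3p lie at similar heights in both groups apart from 1 bright spot, while its reference spots on untreated arrays 1 and 3 are dim and mostly called empty.

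The deposited flags marked the reference of miR-129-3p as empty in 3 of 4 spots on untreated array 1 and in 4 of 4 on untreated array 3, and in none on the other 4 arrays. Its sample spots stood over 2 background SDs above background in 1, 3 and 0 of 4 spots on the estradiol arrays, against 0 of 4 on each untreated array, so its sample signal was weak throughout. No sample spot of miR-129-3p and no spot of miR-129-5p in either channel was called empty. The reference foreground of miR-129-3p was 5.88, 5.50 and 3.53 times its background on the estradiol arrays, against 2.45, 3.76 and 1.5 times on the untreated arrays. Its reference spots stood over 2 background SDs above background in 4, 4 and 0 of 4 spots on the estradiol arrays. On the untreated arrays they did so in 0, 2 and 0 of 4. Untreated array 2 was thus the untreated array with the brightest reference of miR-129-3p, while estradiol array 3 also had a weak one. Set against that array alone, the 3 estradiol arrays differed by -0.12 in miR-129-3p and by 0.61 in the arm gap, a setting chosen after seeing the data. The part of the dim reference in the difference was not tested further.

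Fewer probes were bright in the reference on the untreated arrays. Between 81 and 88 mouse miRNA probes stood over 2 background SDs above background in the reference on the estradiol arrays, against 43 to 74 on the untreated arrays, with untreated array 2 the highest of these. The median reference background of 1184 scanner units on untreated array 3 was the highest of the 6 arrays. In all, 18 probes had a reference called empty on untreated arrays 1 and 3 alone, a set also chosen after seeing the data. Of these 10 had a lower and 8 a higher log ratio with estradiol, with a median difference of -0.04 and a range of -0.68 to 0.38, and miR-129-3p was the lowest. It was also the 1 probe of the 18 whose sample channel was called empty on no array. Over all 294 probes the median difference was -0.02.

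Taken in the sample channel alone, after quantile normalization between arrays, the 5p arm was again higher, while the value of the 3p arm depended on 1 spot. miR-129-5p had log2 levels of 13.81, 13.81 and 13.38 in estradiol cultures 1 to 3, against 13.07, 13.31 and 12.65 in untreated cultures 1 to 3, a difference of 0.65. Every estradiol culture lay above every untreated culture. The share of all probes separated by this measure is not given here, so nothing is read from the separation. miR-129-3p had log2 levels of 12.09, 11.50 and 11.19 in estradiol cultures 1 to 3, against 11.36, 11.73 and 11.68 in untreated cultures 1 to 3, a difference of 0.0073. Estradiol culture 1 was the highest and held 1 spot, in block 7, with 19742 units in Hy3 where the other 3 had 3096 to 3967. Without that spot, a setting added after seeing the data, the levels were 11.31, 11.50 and 11.19 with estradiol and 11.35, 11.72 and 11.67 untreated, a difference of -0.24. The groups overlapped with the spot and without it. The change of the arm gap by this measure was 0.65 with the spot and 0.90 without it, so its larger share came from the 5p arm in both. In the sample channel alone the direction of miR-129-3p is therefore not settled.

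Before normalization, most probes that passed the brightness filter had more signal on the estradiol arrays in both channels, while the median over all 294 probes differed by 0.02 in Hy3 and -0.13 in Hy5. The brightness filter let a probe pass through 1 group alone. Between 57 and 62 mouse miRNA probes were bright in Hy3 on the estradiol arrays, against 37 to 47 on the untreated arrays. An excess of higher Hy3 levels among the 51 was therefore partly fixed by the filter. After background correction, the Hy3 level was higher with estradiol for 45 of the 51 probes that passed the brightness filter, with a median log2 difference of 0.53. The difference of miR-129-5p was 1.21, and 4 of the 51 and 14 of the 294 exceeded it. The difference of miR-129-3p was 0.42, and 32 of the 51 and 85 of the 294 exceeded it. In Hy5, where the RNA was the same on all arrays, 42 of the 51 were also higher on the estradiol arrays, with a median of 0.57. There the difference of miR-129-5p was 0.74, with 20 of the 51 and 50 of the 294 above it. That of miR-129-3p was 1.12, with 6 of the 51 and 18 of the 294 above it.

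The reference was an equal mixture of the 6 samples, so the linear ratios of a probe should average about 1 over the 6 arrays if both dyes read it alike. The mean for miR-129-5p was 0.993, with ratios of 1.11, 1.22 and 1.18 with estradiol and 0.821, 0.829 and 0.797 untreated. The mean for miR-129-3p was 1.77, with ratios of 1.16, 1.07 and 1.77 with estradiol and 2.03, 1.41 and 3.18 untreated. Thus miR-129-3p read higher in the sample than in the mixture on 6 of 6 arrays. Of the 50 probes called empty on no array in either channel, 6 had ratios above 1 on all 6 arrays, and the median of their mean ratios was 1.02. That set leaves out miR-129-3p, whose reference was called empty on untreated arrays 1 and 3. It therefore gives no share for probes with a dim reference.

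None of the 24 spots of either arm was saturated, and 3 spots of miR-129-3p were left out for shape or contamination, 1 each on estradiol array 3 and untreated arrays 2 and 3. On estradiol array 1, the bright miR-129-3p spot of block 7 had 19194 units in Hy5 as well, while the other 3 had 2041 to 3100. Its ratio of 1.03 moved the log ratio of the arm little: without it the difference of miR-129-3p was -0.66 and that of the gap 1.18, a setting added after seeing the data. Before normalization the ratios of median intensities of miR-129-5p were 1.12, 1.40 and 1.11 in estradiol cultures, against 1.11, 0.803 and 0.794 in untreated cultures. Untreated culture 1 then lay right beside the lower estradiol cultures, and it stood clear of them only after normalization.

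The array held both arms of 25 hairpins, 15 named as 5p and 3p and 10 as a name and a star form. The change of the arm gap, estradiol minus untreated, was positive for 14 and negative for 11, with a median of 0.04 and a median absolute size of 0.236. miR-129 had the largest, which the choice of these arms fixes. Next came miR-292, a hairpin known from embryonic stem cells, with 1.04 (SE 0.57), where miR-292-5p differed by 0.48 and miR-292-3p by -0.56. The reference of miR-292-3p was called empty on 5 arrays and its sample channel on 6. The third was miR-9, a neural miRNA, with 0.50 (SE 0.34). The reference of both its arms and the sample channel of its named form were called empty on all 6 arrays. The most negative gaps were those of miR-376a at -0.41 (SE 0.31), miR-434 at -0.39 (SE 0.10) and miR-380 at -0.37 (SE 0.32).

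Arms of opposite sign were common, in 12 of the 25 hairpins. The gap did not overlap between the groups in 3 of them, miR-129, miR-292 and miR-434. In 0 of the 25 did both arms pass the brightness filter, in 12 one arm did and in 13 neither, so no hairpin offered a gap between arms that were both bright. In the sample channel alone, with the bright spot kept, the change of the gap of miR-129 ranked 6th of 25 by size, behind among others miR-17 at -1.18.

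**Figure D3:**
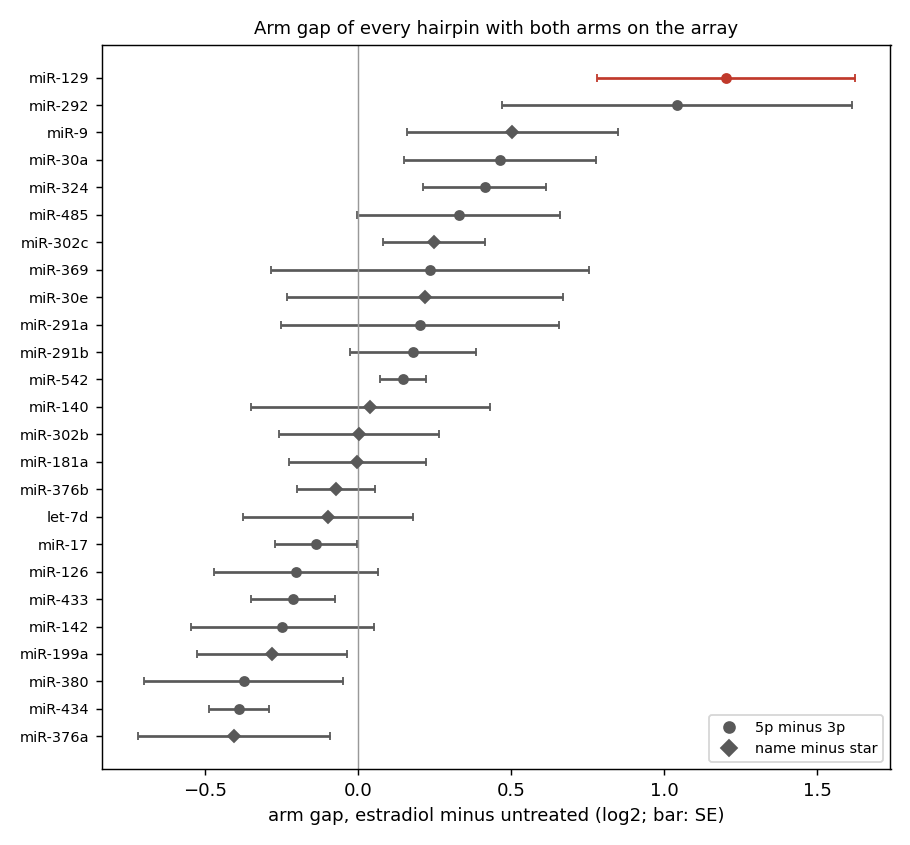
Change of the arm gap, estradiol minus untreated, on the log2 scale for the 25 hairpins with both arms on the array, as points with the SE over 3 cultures a group. Circles are 5p minus 3p and diamonds the named form minus its star form, and miR-129 is in red. miR-129 at 1.20 and miR-292 at 1.04 are the 2 highest, with wide error bars.

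The nearest probes to each arm were sought among bright probes, by the root mean square difference of log ratios centred on each probe's mean over the 6 arrays. For miR-129-5p the nearest were miR-106b at 0.0726, miR-296 at 0.155 and miR-292-5p at 0.162, where the median of the 49 probes searched was 0.322. Their log2 differences were 0.46, 0.25 and 0.48. For miR-129-3p the nearest were miR-130a at 0.271, miR-351 at 0.378 and let-7e at 0.383, where the median of the 50 searched was 0.529. Their log2 differences were -0.42, -0.43 and -0.69. The search asked for the pattern of arms that were chosen for their direction, so the shared direction of the nearest probes was fixed by it.

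The treatment check came from miRNAs of red cell maturation. miR-451, processed without Dicer, was over 2 background SDs above background in the sample channel on 3 estradiol and 0 untreated arrays, so only a bound can be given for it. Its Hy3 level after loess and Aquantile normalization was at least 6.40-fold higher with estradiol, from a mean log2 level of 13.60 with estradiol and a floor of 10.93 for the untreated arrays, where its measured mean was 9.20. The floor of an array is the lowest level among probes above background there, and without a dye swap the bound is open to dye bias. miR-16 was above background on 2 estradiol and 0 untreated arrays and miR-144, from the same cluster as miR-451, on none, so no size is given for them. Of the 5 erythroid miRNAs 4 were called higher without the brightness filter, against 6.46% of all probes called either way. As miR-129 is best known from brain, a neural list of 13 miRNAs (15 probes) was set beside it. Of these probes 12 were called empty in Hy3 on all arrays and 0 were called changed, while miR-134 was bright on 3 estradiol and 2 untreated arrays and miR-124a on 1 estradiol and 0 untreated arrays. Without the filter, of 7 myeloid and mast cell probes 3 were called higher, and no probe of the lymphoid, muscle, fibroblast or embryonic lists was called. Many of these were empty in Hy3 on all arrays: 3 of 7 myeloid and mast cell, 2 of 3 lymphoid, 1 of 3 muscle, 2 of 4 fibroblast and 5 of 6 embryonic probes. Bright on at least 1 array were 2, 0, 0, 2 and 1 of them in that order. The embryonic list held miR-292-3p but not miR-292-5p of the same hairpin. miR-292-5p passed the brightness filter and differed by 0.48 (limma SE 0.11), so the result for that list holds for its listed arms only. The part of other cell types in the difference of miR-129-5p was not tested.

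The differences of both arms were recomputed under other processing. miR-129-5p was higher with estradiol in all 20 alternatives, between 0.29 and 1.19. miR-129-3p was lower in 20 of 23, and the exceptions used the sample channel alone. These were Hy3 alone after quantile normalization with the bright spot kept, and Hy3 net intensity with and without it. With loess fitted on the probes bright in both channels, miR-129-3p differed by -1.26 while the median of all probes moved to -1.29, so relative to that median it differed by 0.03, against -0.66 in the reported setting. Relative to the median of the tested probes it differed by -1.18 in that loess and by -0.63 as reported. The change of the signed arm gap, estradiol minus untreated, was positive in all 23 alternatives, between 0.57 and 1.83. Each of these counts includes the setting with replicate number as a block, which leaves a difference of group means unchanged by design.

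**Figure D4:**
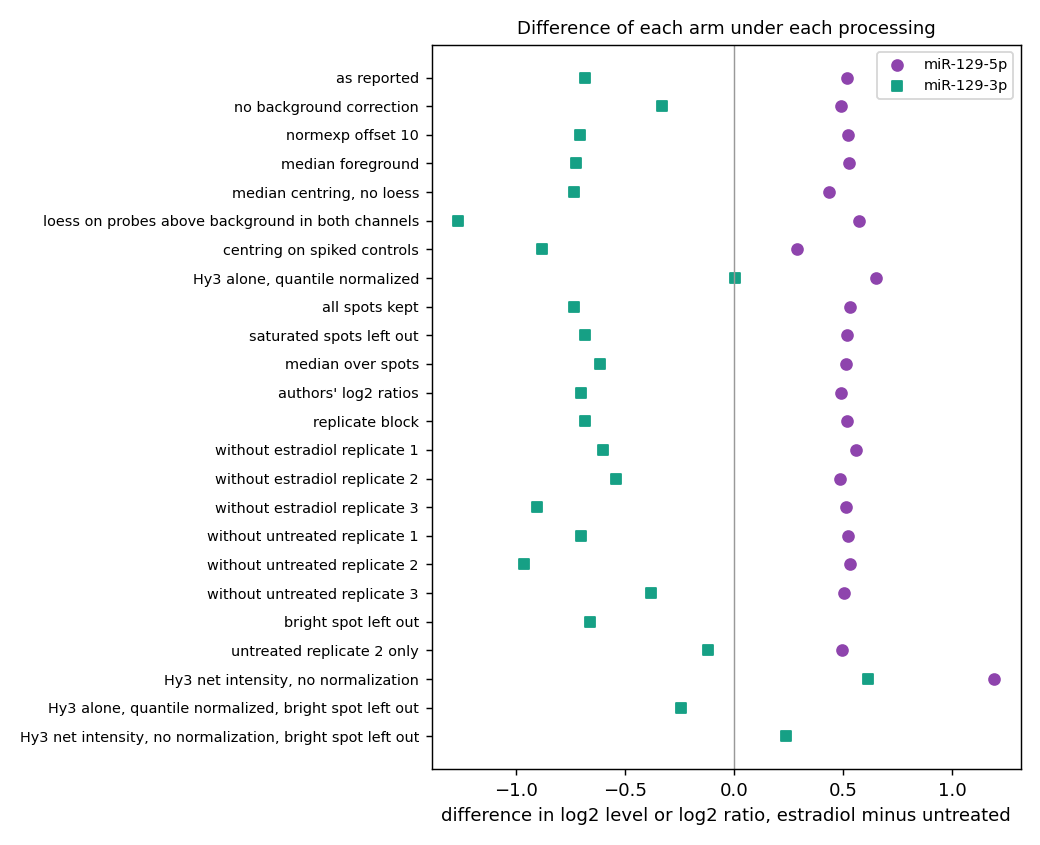
Difference between estradiol and untreated cultures (horizontal axis, log2) of miR-129-5p (purple circles) and miR-129-3p (green squares) under each processing (rows), with the reported setting on top. All purple points lie right of 0, while 3 green points, all from the sample channel alone, lie right of 0.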

How the data were processed

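Sample and common reference RNA were labelled in Hy3 and Hy5, per the labels' protocols. The authors deposited foreground and background intensity per spot, not background-subtracted, with flags. Per the file headers, the authors' deposited ratio is lowess-normalized Hy3 over Hy5, and their deposited log2 values are its log2. A deposited score (the spread over spots) was not used in any result. The scanner model is not given in the sources used here.

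Mean foreground and median background of the 2240 spots in 16 blocks per array were corrected with normexp (offset 50), normalized by loess within each array with control spots at weight 0, and averaged over spots (R 4.3.3, limma 3.58.1). Spots flagged for shape or contamination (111 to 212 per array) were left out and saturated spots kept. Tested were probes for which, on every array of 1 group, a share of 0.5 or more of the spots had Hy3 signal over 2 SD above background. limma's moderated test with an intensity trend and Benjamini-Hochberg adjustment at 0.05 compared the 3 arrays of each group over 51 probes. It was also run on simulated data in which all probes had equal noise, which does not cover dim probes such as miR-129-3p. The number of arrays limits the precision.

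The members, gene lists and named miRNAs were chosen with earlier results of these data known. Named were both arms, for each arm the 3 bright probes with the most similar log ratios, the 3 largest and the 3 most negative arm gaps, any pair with both arms bright, and miR-451, miR-144 and miR-16. Beyond that rule, miR-17, miR-134 and miR-124a were chosen after their values were seen. Sequences came from RefSeq tables (GRCm38.p6) and were folded with RNAfold 2.7.2. Figures were drawn with Python 3.11.15 and matplotlib 3.10.9. Alternatives varied the background correction, normalization, spot and brightness filters, summary over spots, test and replicates.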

Additional observations from a re-analysis of the deposited data

How the results depend on the processing

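The count of called probes was 7 of 51 (6 higher, 1 lower). It was 11 without background correction (9 higher, 2 lower), 3 with median centring (2 and 1), 4 in Hy3 alone (3 and 1), 19 of 294 without the brightness filter (17 and 2) and 15 of 90 with a filter on the empty call (13 and 2). Centring on the 2 spiked control probes gave 10 calls (3 and 7) and moved the median difference of all probes to -0.14, against -0.02 as reported. Relative to these medians miR-129-5p differed by 0.43 and 0.54, and miR-129-3p by -0.74 and -0.66. The loess on the 41 probes bright in both channels, miR-129-5p among them and miR-129-3p not, moved that median to -1.29 over all probes and to -0.08 over those tested, and gave 8 calls (6 and 2). The difference of miR-129-5p was 0.44 with median centring, 0.29 with spiked controls, 0.65 in Hy3 alone and 1.19 in Hy3 net intensity without normalization. miR-129-3p differed by -1.26 with the loess on both channels, by -0.12 against untreated culture 2 only, by 0.0073 in Hy3 alone and by 0.62 in Hy3 net intensity. Without the bright spot on estradiol array 1 these last values became -0.24 and 0.24. The arm gap differed by 1.83, 0.61, 0.65 and 0.57 in those 4 settings with the spot kept, and by 0.90 and 0.95 without it in the Hy3 settings. Leaving out 1 culture at a time gave 5 to 10 calls, 0.49 to 0.56 for miR-129-5p, -0.96 to -0.38 for miR-129-3p and 0.88 to 1.5 for the gap. The untreated-culture-2, bright-spot and Hy3-net settings were added after seeing the data. With the replicate number as a block 8 probes were called (7 higher, 1 lower). Such a block leaves differences of group means unchanged by design, so the 0.52, -0.68 and 1.20 of the arms and gap were not tested by it. Same-numbered cultures correlated at 0.07, -0.11 and -0.12 over 50 probes, and 1 of 6 correlated best with its own number. With 3 cultures a group, these values cannot decide whether cultures of the same number were paired. The cause of these shifts was not tested.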
